A study of Mus musculus with 2 samples.

Results

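The tumour necrosis factor (TNF) superfamily ligands and their receptors were described in mouse bone marrow-derived macrophages, a culture model in which marrow cells of C57BL/6 mice mature into macrophages. The family was taken by gene symbol: every symbol beginning with Tnfrsf or Tnfsf and a digit apart from Tnfsf9, together with Tnf, Lta, Ltb, Cd40lg, Cd27, Cd70, Fas, Fasl and Ltbr, with Cd40 itself left out. This gave 40 of the 34714 genes in the table, namely 16 ligands, 23 receptors and Tnfsf13os, a noncoding RNA gene that carries a family symbol without encoding a ligand. The anti-CD40 group was treated with the monoclonal antibody FGK45, which binds and activates CD40, and the IgG group with control immunoglobulin. Each treatment lasted 24 h, and both cultures had been grown in 20 ng/mL macrophage colony-stimulating factor. Each group held 1 library, the number of mice behind it is not given in the sources used here, and differences therefore have no replicate check and no p-value.

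TNF superfamily ligands are mostly made as trimeric membrane proteins, and some of them are cut from the cell surface into a soluble form. Their receptors fall into those with a cytoplasmic death domain, which can recruit caspases, those that bind TRAF adaptors and signal to NF-kB, and decoys that bind ligand without passing a full signal. Macrophages are a major source of TNF, carry both TNF receptors, and become osteoclasts when RANK ligand engages RANK. CD40 belongs to the same receptor family.

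The values are taken to be FPKM, which divides fragment numbers by transcript length and by library size, so levels can be compared between genes. Steps in the lowest values gave about 6.16 gigabases of aligned sequence for the anti-CD40 library and 5.58 for the IgG library. From these steps an approximate number of fragments was computed for each gene, and each ratio is given with a 95% exact conditional binomial interval on those fragments that covers counting error only. All 9 macrophage markers were at 1 FPKM or more in both libraries. Of the markers of other cells, 1 of 6 for B cells (Cd22), 1 of 6 for T cells (Cd4), 1 of 6 for neutrophils (S100a8), 0 of 5 for NK cells, 0 of 6 for dendritic cells, 0 of 6 for stromal cells and 0 of 4 for mast cells reached 1 FPKM in either library. Osteoclast markers, some of which macrophages also express, did so for 3 of 5 (Ctsk, Acp5 and Dcstamp). The sum of the 5 was 55.1 FPKM with anti-CD40 and 50.2 FPKM with IgG. The higher sum came from Ctsk, at 46.0 FPKM (anti-CD40) and 38.1 FPKM (IgG), while Acp5 and Dcstamp were both lower with anti-CD40. The median log2 ratio of FPKM + 1, anti-CD40 over IgG, was 0.12 over the 9101 genes that reached 1 FPKM in both, so a member lies above or below most genes only relative to that shift. Less RNA per cell and fewer cells of a type cannot be told apart in such bulk libraries.

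Of the 40 members, 18 reached 1 FPKM in at least 1 library, and 2 of these, Tnfrsf22 and Tnfrsf4, did so in only 1 of the libraries. Of the 22 others, 7 were listed at 0 in both. No member was 1.5-fold apart in either direction on the log2(FPKM + 1) scale, where 2.68% of the 9591 genes that reached 1 FPKM were that much higher with anti-CD40 and 2.15% that much lower. At 2-fold the count was likewise 0, against 0.25% of genes higher and 0.313% lower. On the same scale, 4 members were at least 25% higher with anti-CD40 (Tnf, Tnfrsf1b, Tnfrsf13b and Tnfrsf12a), where 18.3% of genes were. Lower by the same factor were 0 members, where 8.26% of genes were. A count of 4 among 18 is close to that background. Of these 4, Tnf alone was counted under every setting tried: Tnfrsf1b was not counted after centring on the median of all genes, after upper-quartile scaling or with a pseudocount of 5, and Tnfrsf12a was not after centring or with that pseudocount. Tnfrsf13b was not with that pseudocount, and a filter at 5 FPKM removes both Tnfrsf12a and Tnfrsf13b. All 18 lay within the central 90% of all genes, which runs from -0.43 to 0.50 on the log2 scale. Among the 33 members above 0 in either library, 24 had a log2 ratio above 0, where 60.8% of all 17528 such genes did. Summed over the 40 members, the level was 476 FPKM with anti-CD40 and 406 FPKM with IgG, a difference of 70.3 FPKM, of which Tnf made up 50.7% and Tnfrsf1b 24.7%.

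**Figure D1:**
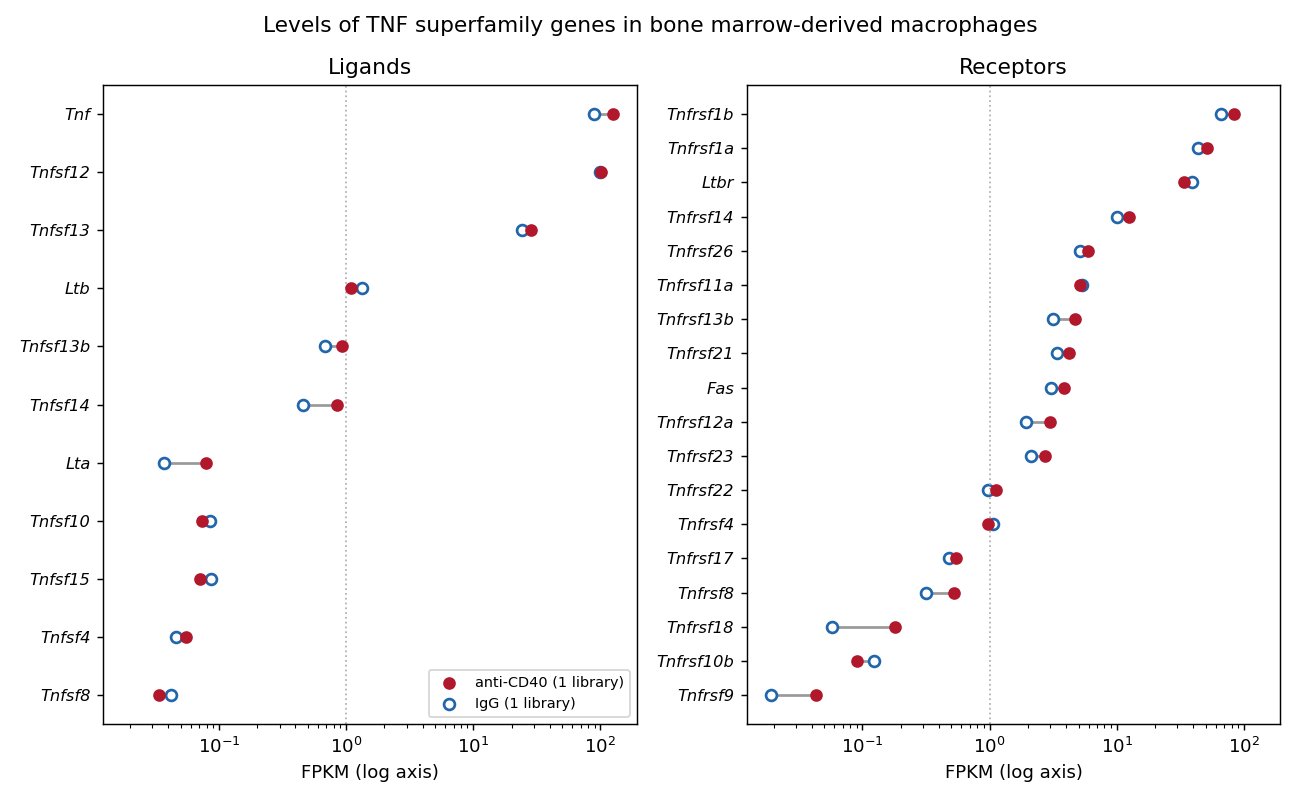
FPKM (log axis) of each ligand (left) and receptor (right) listed above 0 in both libraries, with a filled point for the anti-CD40 library, an open point for the IgG library and a dotted line at 1 FPKM. The levels span from Tnf at 125 FPKM (anti-CD40) and 89.1 FPKM (IgG) down to members under 0.1 FPKM, and most pairs of points lie close together.

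Among the ligands, Tnf was the member furthest above the median of all genes. Tnf encodes the founding cytokine of the family (chromosome 17, 35199367 to 35202007, GRCm38, minus strand). It had 125 FPKM in the anti-CD40 library, against 89.1 FPKM in the IgG library. The ratio was 1.40, with an interval from 1.33 to 1.47 on about 3973 anti-CD40 and 2569 IgG fragments, and its log2 ratio of 0.48 exceeded that of 94.3% of genes. With anti-CD40, Tnf stood first among all 40 members by level, and with IgG it stood second, behind Tnfsf12. Tnf supplied 48.5% of the summed ligand FPKM with anti-CD40 and 41.3% with IgG.

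Ltb encodes lymphotoxin beta, the membrane anchor of the heterotrimer that binds the lymphotoxin beta receptor. It lies on chromosome 17 (35194507 to 35196305, plus strand), and 3061 bases separate its end from that of Tnf, which points towards it. Ltb had 1.10 FPKM in the anti-CD40 library and 1.34 FPKM in the IgG library. This is the opposite direction to Tnf at a level near the filter, with a ratio of 0.820 and an interval from 0.459 to 1.43. That interval includes both 1 and the Tnf ratio of 1.40, so it does not separate Ltb from Tnf. The log2 ratio of Ltb, -0.16, became -0.01 when trends with GC content and length were removed. Lta, the gene of lymphotoxin alpha on the other side of Tnf, was near the floor at 0.0797 FPKM (anti-CD40) and 0.0368 FPKM (IgG), about 2.26 anti-CD40 and 0.947 IgG fragments.

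The promoters of Tnf and Ltb are shown because the genes are neighbours with opposite directions, though the Ltb interval does not resolve that contrast. Those of the receptor genes Tnfrsf1a and Ltbr, taken up further on, are shown as members 35837 bases apart with opposite directions. Each run is the 250 bases before the annotated start, 5′ to 3′ on the gene's own strand, from RefSeq on GRCm38.p6. The windows are chr17:35202008-35202257 (minus strand) for Tnf, chr17:35194257-35194506 (plus strand) for Ltb, chr6:125349473-125349722 (plus strand) for Tnfrsf1a and chr6:125313886-125314135 (minus strand) for Ltbr. Capitals mark matches on either strand to GGG and CC separated by any 5 bases, a loose form of the NF-kB motif, and overlapping matches run together.
Tnf: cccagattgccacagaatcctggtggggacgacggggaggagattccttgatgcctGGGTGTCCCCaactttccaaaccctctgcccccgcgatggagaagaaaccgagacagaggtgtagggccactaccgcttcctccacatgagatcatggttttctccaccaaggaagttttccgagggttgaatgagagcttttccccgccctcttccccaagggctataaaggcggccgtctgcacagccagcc
Ltb: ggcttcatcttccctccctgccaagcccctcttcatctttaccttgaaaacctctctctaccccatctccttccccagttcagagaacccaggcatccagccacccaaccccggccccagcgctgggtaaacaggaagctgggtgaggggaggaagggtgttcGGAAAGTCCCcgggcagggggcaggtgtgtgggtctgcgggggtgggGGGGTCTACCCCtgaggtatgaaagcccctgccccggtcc
Tnfrsf1a: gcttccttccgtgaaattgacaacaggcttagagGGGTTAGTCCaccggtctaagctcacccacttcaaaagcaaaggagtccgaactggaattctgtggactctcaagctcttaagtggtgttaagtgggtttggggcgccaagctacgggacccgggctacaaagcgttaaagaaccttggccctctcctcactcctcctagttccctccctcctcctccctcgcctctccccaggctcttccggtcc
Ltbr: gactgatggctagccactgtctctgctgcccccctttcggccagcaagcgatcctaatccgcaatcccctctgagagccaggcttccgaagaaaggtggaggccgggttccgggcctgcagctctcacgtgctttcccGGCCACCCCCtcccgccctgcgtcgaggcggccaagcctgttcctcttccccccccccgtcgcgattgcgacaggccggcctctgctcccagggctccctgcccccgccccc

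Tnf held 1 match, beginning 194 bases before the start, and Ltb held 4, of which those beginning 40, 39 and 38 bases before the start overlap each other. Tnfrsf1a and Ltbr held 1 match each, beginning 216 and 112 bases before their starts. Of the 18 members at 1 FPKM or more, 14 had a promoter in the table, and 12 of the 14 held a match. Such a match was present in 61.4% of the 10015 promoters of genes at 1 FPKM or more and in 45.8% of all 32851. The AP-1-like motif TGANTCA was present in 2 of the 14 (Fas and Tnfsf13) and in 4.39% of promoters of genes at 1 FPKM or more. The interferon response-like motif, TTTC repeated after any 2 bases, was likewise present in 2 (Tnfrsf1b and Tnfrsf14) and in 2.79%. Members above and below the median of all genes both held the loose NF-kB match.

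The other abundant ligands differed little. Tnfsf12 encodes TWEAK, the ligand of the receptor Fn14 (chromosome 11, 69686240 to 69696098, minus strand). It had 101 FPKM in the anti-CD40 library and 99.4 FPKM in the IgG library. Its ratio of 1.02 had an interval from 0.966 to 1.07, and its log2 ratio of 0.03 lay 0.09 below the median, so that its direction turns once that shift is subtracted. Tnfsf13 encodes APRIL, a survival factor of plasma cells (chromosome 11, 69682577 to 69685554, minus strand), and had 28.3 FPKM with anti-CD40 and 24.3 FPKM with IgG. Its ratio was 1.16, with an interval from 1.05 to 1.29 that includes the median ratio of all genes of 1.11.

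Only 685 bases separate these 2 ligand genes, and 2 further genes in the table overlap both. Tnfsfm13, a readthrough gene that joins TWEAK to APRIL, lies on the same strand and had 14.2 FPKM with anti-CD40 and 13.4 FPKM with IgG. Tnfsf13os runs on the opposite strand and had 5.04 FPKM (anti-CD40) and 4.54 FPKM (IgG). The strand setting of the counting is not given in the sources used here, so the division of reads among these 4 genes is uncertain. None of the 4 was 25% higher or lower by that factor.

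Below 1 FPKM, Tnfsf13b, the gene of the B cell survival factor BAFF, had 0.933 FPKM with anti-CD40 and 0.685 FPKM with IgG. Its ratio of 1.36 had an interval from 0.966 to 1.90. Tnfsf14, the gene of LIGHT, which binds HVEM and the lymphotoxin beta receptor, had 0.844 FPKM (anti-CD40) and 0.459 FPKM (IgG). That ratio of 1.84 rests on about 32.0 anti-CD40 and 15.8 IgG fragments and has an interval from 0.965 to 3.53. Both were higher in the anti-CD40 library, with intervals that include 1. The death ligand gene Tnfsf10 (TRAIL) had 0.0734 FPKM with anti-CD40 and 0.0846 FPKM with IgG, and Tnfsf4, the OX40 ligand of antigen-presenting cells, had 0.0552 FPKM (anti-CD40) and 0.0459 FPKM (IgG). The gene of TL1A, Tnfsf15, had 0.0705 FPKM with anti-CD40 and 0.0866 FPKM with IgG, the CD30 ligand gene Tnfsf8 had 0.0338 FPKM (anti-CD40) and 0.0418 FPKM (IgG), and the GITR ligand gene Tnfsf18 had 0.0172 FPKM with anti-CD40 but a listed 0 with IgG. These 5 ligands were all near the floor. Tnfsf11, the gene of RANK ligand, was listed at 0 in both libraries, as were Cd40lg, Fasl and Cd70, and an exact 0 in such a table can be a failed estimate. The 4 ligands at 1 FPKM or more were thus Tnf, Tnfsf12, Tnfsf13 and Ltb.

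Both TNF receptors were among the most abundant receptors of the family. Tnfrsf1b encodes TNFR2, which lacks a death domain (chromosome 4, 145212368 to 145246870, minus strand). It had 83.1 FPKM in the anti-CD40 library, against 65.8 FPKM in the IgG library. The ratio of 1.26 had an interval from 1.22 to 1.31 on about 6518 anti-CD40 and 4669 IgG fragments, wholly above the median ratio of all genes of 1.11. Tnfrsf1a encodes TNFR1, the death domain receptor found on most cells (chromosome 6, 125349723 to 125362483, plus strand), and had 51.5 FPKM with anti-CD40 and 43.8 FPKM with IgG. Its ratio of 1.18 had an interval that begins at 1.10, just below the median ratio of all genes, and its log2 ratio exceeded that of 68.9% of genes, compared with 83.3% for Tnfrsf1b. The level of Tnfrsf1b was 1.61 times that of Tnfrsf1a with anti-CD40 and 1.5 times with IgG. The ligand stood at 2.42 times the level of Tnfrsf1a with anti-CD40 and 2.03 times with IgG, so Tnf and both of its receptors were each higher in the anti-CD40 library and the ligand by more.

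Ltbr, the lymphotoxin beta receptor (chromosome 6, 125306571 to 125313885, minus strand), lay furthest below the median. Its level was 33.5 FPKM in the anti-CD40 library, against 38.7 FPKM in the IgG library. The ratio of 0.866 had an interval from 0.805 to 0.931 on about 1451 anti-CD40 and 1517 IgG fragments, and 13.7% of genes had a lower log2 ratio. Ltbr and Tnfrsf1a lie 35837 bases apart and differed in opposite directions, and their promoters are printed above. Ltbr made up 15.7% of the summed receptor FPKM with anti-CD40 and 20.9% with IgG.

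**Figure D2:**
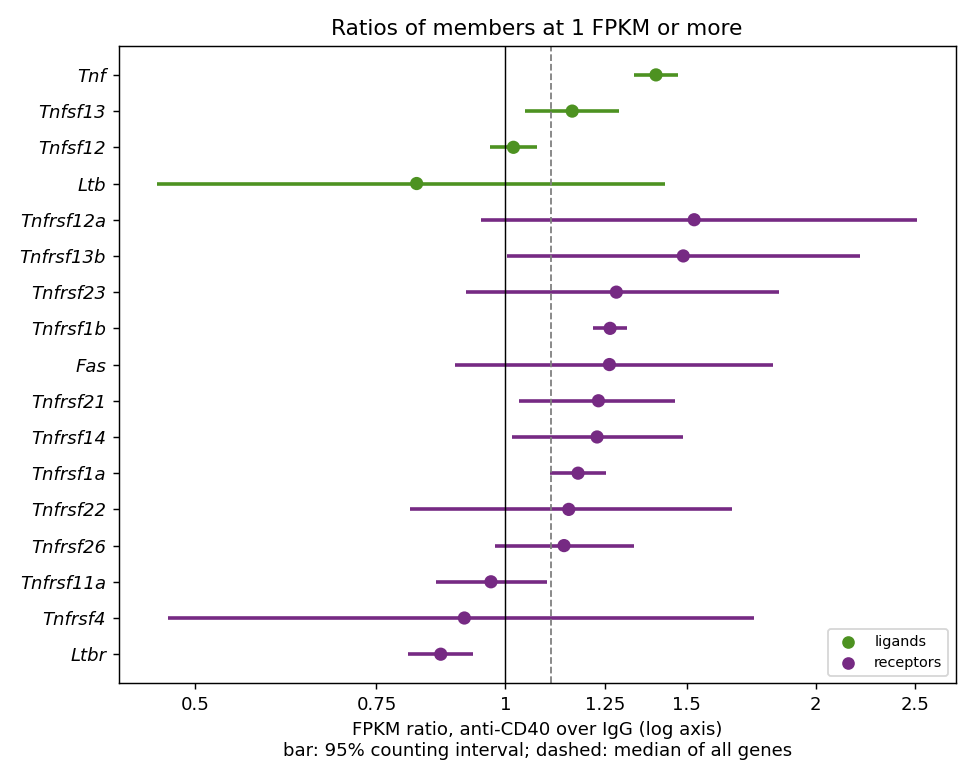
FPKM ratio (log axis), anti-CD40 over IgG, of the 4 ligands and 13 receptors that reached 1 FPKM; bars are 95% counting intervals, the solid line marks 1 and the dashed line the median ratio of all genes, 1.11. The intervals of Tnf and Tnfrsf1b lie wholly above the dashed line, and those of Ltbr, Tnfsf12 and Tnfrsf11a wholly below it.

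The death domain receptors at 1 FPKM or more, other than Tnfrsf1a, were low. Fas (chromosome 19, 34290647 to 34327775) triggers apoptosis when bound by Fas ligand and had 3.86 FPKM with anti-CD40 and 3.06 FPKM with IgG. Tnfrsf21, the gene of death receptor 6 (chromosome 17, 43016555 to 43089188), had 4.19 FPKM (anti-CD40) and 3.41 FPKM (IgG). Their ratios of 1.26 and 1.23 had intervals from 0.893 to 1.82 and from 1.03 to 1.46, both of which include the median ratio of all genes. Tnfrsf10b, the TRAIL receptor with a death domain, had 0.0909 FPKM (anti-CD40) and 0.122 FPKM (IgG), about 5.94 anti-CD40 and 7.23 IgG fragments. Tnfrsf25 was listed at 0 in both libraries.

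The decoy genes Tnfrsf22 and Tnfrsf23, whose mouse products bind TRAIL, lie beside Tnfrsf26 on chromosome 7. Tnfrsf23 had 2.73 FPKM with anti-CD40 and 2.13 FPKM with IgG, Tnfrsf22 had 1.11 FPKM (anti-CD40) and 0.967 FPKM (IgG), and Tnfrsf26 had 5.90 FPKM (anti-CD40) and 5.18 FPKM (IgG). The cluster was slightly higher with anti-CD40 at each gene, with ratios of 1.28, 1.15 and 1.14 whose intervals all include 1. The direction of Tnfrsf22 turned once the median shift was subtracted. The genes are related copies, so the split of reads among them is uncertain. The soluble RANK ligand decoy Tnfrsf11b, osteoprotegerin, was at 0 in both libraries.

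Tnfrsf12a and Tnfrsf13b had the highest ratios among receptors at 1 FPKM or more, on few fragments. Tnfrsf12a encodes Fn14, the receptor of TWEAK (chromosome 17, 23675445 to 23677449, minus strand). It had 2.96 FPKM in the anti-CD40 library, against 1.94 FPKM in the IgG library. The ratio of 1.53 rests on about 49.4 anti-CD40 and 29.3 IgG fragments, and its interval from 0.947 to 2.51 includes 1. Over 80 bases it overlaps Hcfc1r1 on the opposite strand, a more abundant gene with 91.8 FPKM in the anti-CD40 library and 122 FPKM in the IgG library. The part of these shared bases in the Tnfrsf12a value was not tested. The FPKM of Tnfsf12, the gene of TWEAK, was 34.2 times that of Tnfrsf12a with anti-CD40 and 51.2 times with IgG.

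Tnfrsf13b encodes TACI, a receptor of BAFF and APRIL best known from B cells (chromosome 11, 61126283 to 61153170, plus strand). It had 4.66 FPKM in the anti-CD40 library, against 3.13 FPKM in the IgG library. The ratio of 1.49 had an interval that begins just above 1 and ends at 2.21, on about 71.8 anti-CD40 and 43.7 IgG fragments. Over 1390 bases Tnfrsf13b overlaps Usp22 on the opposite strand, which had 1.29 FPKM (anti-CD40) and 0.947 FPKM (IgG). The part of these shared bases in the Tnfrsf13b value was not tested. The B cell markers summed to 2.89 FPKM with anti-CD40 and 3.02 FPKM with IgG, of which Cd22 had 1.66 FPKM (anti-CD40) and 2.04 FPKM (IgG), while Pax5 was at 0 in both. The marker sum was thus lower with anti-CD40 while Tnfrsf13b was higher. Tnfrsf17, the plasma cell receptor BCMA, had 0.544 FPKM (anti-CD40) and 0.479 FPKM (IgG), and Tnfrsf13c, the BAFF receptor, was at 0 with anti-CD40 and 0.0184 FPKM with IgG.

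Tnfrsf14 (chromosome 4, 154918487 to 154928620) encodes HVEM, a receptor of LIGHT and a partner of the inhibitory BTLA, and had 12.4 FPKM with anti-CD40 and 10.1 FPKM with IgG. Its ratio of 1.23 had an interval from 1.01 to 1.49. Tnfrsf4, the T cell costimulator OX40, had 0.979 FPKM (anti-CD40) and 1.07 FPKM (IgG) on about 20.7 anti-CD40 and 20.5 IgG fragments, and its ratio of 0.913 had an interval from 0.470 to 1.74. Its direction turned when trends with GC content and length were removed. Over 16 bases Tnfrsf4 overlaps the more abundant Sdf4 on the same strand, which had 51.4 FPKM (anti-CD40) and 55.8 FPKM (IgG). The part of these shared bases in the Tnfrsf4 value was not tested. T cell markers summed to 4.28 FPKM with anti-CD40 and 3.51 FPKM with IgG, most of it from Cd4, with Cd3d, Cd3e, Cd3g and Cd8a at 0 in both libraries. Lck, the remaining marker, went the other way from the sum, at 0.334 FPKM (anti-CD40) and 0.478 FPKM (IgG). The other receptors known from activated lymphocytes were lower still: Tnfrsf8, the gene of CD30, had 0.529 FPKM (anti-CD40) and 0.314 FPKM (IgG), Tnfrsf18, the gene of GITR, 0.18 FPKM (anti-CD40) and 0.0577 FPKM (IgG), and Tnfrsf9, the gene of 4-1BB, 0.0431 FPKM (anti-CD40) and 0.0191 FPKM (IgG). Tnfrsf19 was at 0 in both libraries, and Cd27 was listed at 0.0505 FPKM with anti-CD40 and at 0 with IgG. For Tnfrsf4, Tnfrsf8, Tnfrsf18 and Tnfrsf9 the interval included 1, and Cd27 has none.

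RANK, the receptor that drives osteoclast formation, was close to equal in the libraries. Its gene Tnfrsf11a lies on chromosome 1 (105780673 to 105849444) and had 5.17 FPKM with anti-CD40 and 5.34 FPKM with IgG. The ratio of 0.969 had an interval from 0.856 to 1.10, and the direction turned to slightly higher, at 0.00 on the log2 scale, when both libraries were rescaled to the same sum. Of 10 genes that RANK signalling induces in osteoclasts, 6 reached 1 FPKM, of which 0 were at least 25% higher with anti-CD40, against 18.3% of all genes, and 1, Dcstamp, was lower by that factor, against 8.26%. Dcstamp, needed for the fusion of osteoclast precursors, had 2.02 FPKM with anti-CD40 and 3.33 FPKM with IgG. Acp5, the tartrate-resistant acid phosphatase, had 7.07 FPKM with anti-CD40 and 8.77 FPKM with IgG. Ctsk, the collagen-degrading cathepsin K, was higher, at 46.0 FPKM with anti-CD40 and 38.1 FPKM with IgG, a ratio of 1.21 with an interval from 1.12 to 1.31. Nfatc1, the transcription factor that directs osteoclast formation, had 8.88 FPKM with anti-CD40 and 8.30 FPKM with IgG. Of the 6, then, 2 had a log2 ratio above 0 and 4 below it, where 67.8% of all genes that reached 1 FPKM were above 0. The list's median was -0.25, against 0.12 for all genes. The lysosomal proton pump subunit Atp6v0d2 had 47.0 FPKM with anti-CD40 and 55.7 FPKM with IgG, and the integrin chain Itgb3 had 9.35 FPKM (anti-CD40) and 11.3 FPKM (IgG). Calcr, a marker of mature osteoclasts, was at 0 in both libraries.

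The genes around the family were read from lists of their roles. Of 6 genes at 1 FPKM or more that act in the shedding of TNF and its receptors, 2 were at least 25% higher with anti-CD40 and 0 lower by that factor, against 18.3% and 8.26% of all genes. Rhbdf2, which encodes iRhom2, the partner that brings the sheddase ADAM17 to the cell surface, had 15.5 FPKM with anti-CD40 and 9.89 FPKM with IgG, a ratio of 1.57 with an interval from 1.43 to 1.73. Frmd8, which stabilises the iRhom complex, had 12.3 FPKM (anti-CD40) and 9.58 FPKM (IgG), and Adam17 itself had 17.7 FPKM (anti-CD40) and 14.5 FPKM (IgG). Adam17, Rhbdf2 and Frmd8 were therefore each higher in the anti-CD40 library, while Adam10 had 9.83 FPKM (anti-CD40) and 9.40 FPKM (IgG). Nucb2 alone of the 6 was lower, at 18.8 FPKM with anti-CD40 and 19.6 FPKM with IgG. Rhbdf1, on the same list, was below 1 FPKM, at 0.732 FPKM (anti-CD40) and 0.693 FPKM (IgG). The Rhbdf1 ratio of 1.06 had an interval from 0.664 to 1.66 that includes 1. Timp3, a tissue inhibitor of metalloproteinases on that list, was also below 1 FPKM, at 0.389 FPKM (anti-CD40) and 0.173 FPKM (IgG). Its ratio of 2.25 had an interval from 1.23 to 4.49 on about 37.7 anti-CD40 and 15.1 IgG fragments.

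Of 13 genes that control the stability or translation of Tnf mRNA, 4 were at least 25% higher (Zfp36, Zc3h12a, Tia1 and Hnrnpd) and 0 lower by that factor, beside the same shares of 18.3% and 8.26% over all genes. Zfp36 encodes tristetraprolin, which binds AU-rich elements of Tnf mRNA and speeds its decay, and had 306 FPKM with anti-CD40 and 182 FPKM with IgG. Its ratio of 1.68 had an interval from 1.64 to 1.72, a larger ratio than that of Tnf. Zc3h12a, the gene of the ribonuclease regnase-1, had 6.47 FPKM (anti-CD40) and 4.61 FPKM (IgG), and Mapkapk2, the kinase that inactivates tristetraprolin, had 200.3 FPKM (anti-CD40) and 222 FPKM (IgG). The list's median log2 ratio of 0.12 equalled that of all genes to 2 decimals.

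The next lists hold the proteins that act at the receptors, and the shares of all genes to set beside their counts are again 18.3% higher and 8.26% lower. For counts above 0, the share is 67.8% of all genes that reached 1 FPKM in a library. Of 17 TRAF and ubiquitin genes at 1 FPKM or more, 4 were at least 25% higher (Birc2, Birc3, Tab2 and Traf3) and 1 lower by that factor (Tab1), with a median log2 ratio of 0.16 and 13 of the 17 above 0. Traf3, an adaptor that restrains the noncanonical NF-kB pathway, had 3.08 FPKM with anti-CD40 and 2.23 FPKM with IgG, and Traf2 had 7.71 FPKM (anti-CD40) and 9.48 FPKM (IgG). Of 12 death domain adaptors and caspases, 1 was that much higher (Bid) and 0 lower, with a median of 0.12 and 9 of the 12 above 0. Tradd, the adaptor of TNFR1, had 27.6 FPKM with anti-CD40 and 22.0 FPKM with IgG, Bid, which carries the caspase-8 signal to mitochondria, had 15.7 FPKM (anti-CD40) and 11.6 FPKM (IgG), and Cflar, the caspase-8 inhibitor, had 9.35 FPKM (anti-CD40) and 11.7 FPKM (IgG). Casp8 itself had 11.2 FPKM with anti-CD40 and 9.23 FPKM with IgG. Of 13 genes that dampen TNF receptor signalling, 4 were that much higher (Tnfaip3, Nfkbia, Itch and Tax1bp1) and 0 lower. The list's median was 0.20, and 11 of the 13 were above 0. Tnfaip3, the gene of the ubiquitin-editing enzyme A20, had 8.60 FPKM with anti-CD40 and 4.03 FPKM with IgG. Nfkbia, which encodes IkB-alpha, had 57.4 FPKM (anti-CD40) and 36.8 FPKM (IgG), Itch, a ubiquitin ligase that works with A20, had 3.49 FPKM (anti-CD40) and 2.15 FPKM (IgG), and Otulin, a deubiquitinase of linear chains, had 38.3 FPKM (anti-CD40) and 47.0 FPKM (IgG).

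**Figure D3:**
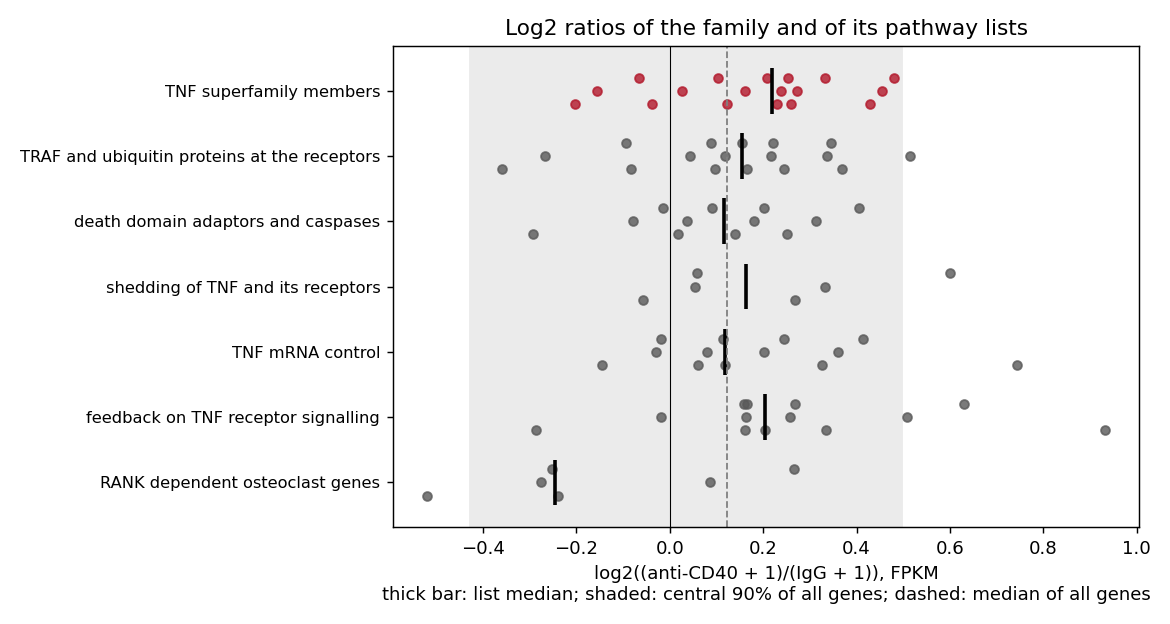
Log2 ratio of FPKM + 1, anti-CD40 over IgG, of genes that reached 1 FPKM, with a point per gene in the family and in 6 lists of related genes; thick bars are list medians, the shaded band holds the central 90% of all genes and the dashed line is their median. All family members lie within the band, and the osteoclast list has the lowest median, at -0.25.

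Several related genes fall outside the naming rule. Tnfsf9, the gene of 4-1BB ligand, had 5.11 FPKM with anti-CD40 and 2.69 FPKM with IgG, and its log2 ratio of 0.73 was above that of every member. Cd40, the receptor bound by the antibody, had a log2 ratio of 0.13, near the median of all genes. Ngfr, Eda, Edar, Eda2r and Relt, receptors and a ligand of the wider family, were each below 1 FPKM in both libraries, with Relt the highest at 0.382 FPKM (anti-CD40) and 0.237 FPKM (IgG).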

How the data were processed

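RNA sequencing was done on 2 libraries, 1 per group. Per the labels' protocols, RNA was taken with TRIzol and 1.3 ug per library entered a TruSeq preparation. The submitters' processing notes name HISAT2 2.1.0, StringTie and the mouse build mm10, with no roles. The authors deposited 1 table without a named unit, and its values were read as FPKM because StringTie is named and the column sums differ (529104 for anti-CD40 and 547362 for IgG).

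Columns were assigned by name, and 0 columns of per-sample values were unused. Each of the 34714 symbols was found among RefSeq genes on GRCm38.p6, the source of coordinates. In single-exon genes, FPKM times length was most often 48.7 (anti-CD40) and 53.8 (IgG), taken as 1 fragment of 300 aligned bases. Only 6 of 138 low genes (anti-CD40) and 4 of 92 (IgG) stood at that value. On a grid of fractions of a base fitted to these values, 71.0% of 138 and 80.4% of 92 low genes were whole multiples within 0.05 steps. The fit chose the step with the most whole multiples in these same genes. Spacing alone would give 10% for a step that was not fitted, so these shares are no separate check of the step. Fragments per gene used the median GENCODE (release 21) transcript length, so intervals are approximate.

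The measure was the log2 ratio of FPKM + 1, over genes that reached 1 FPKM in a library. Limits were 25% higher, 1.5-fold and 2-fold, each also in the lower direction. With 1 library per group no test was made. The value of 1 marker gene is not reported here. Members at 1 FPKM or more were named, with up to 6 of the highest below it, genes of textbook interest, and up to 4 genes with the largest ratio from each pathway list. Other genes named from these lists, and members named below that level, were picked with their values known. The members and lists were chosen with earlier results of these data known. Counting of fold limits was tested on simulated data. Python 3.11.15, pandas 2.3.3, scipy 1.17.1 and matplotlib 3.10.9 were used.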

Additional observations from a re-analysis of the deposited data

How the results depend on the processing

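The alternatives were pseudocounts of 0.1 and 5 FPKM, no filter, a filter at 5 FPKM, centring on the median of all genes, rescaling to the mean of the sums, to the upper quartile or to TPM-like sums, and, chosen after seeing the data, removal of GC content and length trends and omission of Tnfsf13os. The count of members at least 25% higher was 4 of 18 as reported and 9 of 22 with TPM-like sums. It was 2 of 18 after centring, 2 of 10 with the filter at 5 FPKM and 1 of 18 with a pseudocount of 5. The 9 include Tnfrsf8 and Tnfsf14, which were below 1 FPKM as reported. Shares of all genes past the fold limits were computed only for the reported setting. Changes in these counts therefore do not show whether members moved apart from all genes. Tnf was counted under every one of these settings. Tnfrsf13b was the other after centring and Tnfrsf1b the other with the filter at 5 FPKM. The count lower by that factor was 0 as reported and 1 (Ltbr) after upper-quartile scaling. The count at least 1.5-fold higher was 2 (Tnfrsf12a and Tnfrsf13b) with GC content and length trends removed. The counts at 2-fold were 0 under all settings. The median of members at 1 FPKM or more was 0.22 as reported and ran from 0.08 after upper-quartile scaling to 0.29 with TPM-like sums. The ligand median of 0.12 turned to -0.00 after centring and -0.03 after upper-quartile scaling. Upper-quartile scaling moves the median of all genes to 0.00. Directions of single members turned for Tnfsf12, Tnfrsf22, Tnfrsf11a and Tnfrsf4 under at least 1 setting, Tnfrsf4 with GC content and length trends removed. The causes were not tested. No paired analysis was possible because each group holds 1 library, and leaving out a replicate could not be done for the same reason. Depth limits the low members: for Ltb the counting interval of the ratio runs from 0.459 to 1.43.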
